A study of Mus musculus with 2 samples.

Results

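The 784 regions described here are stretches of protein-coding sequence on which Ago2 was enriched in mouse embryonic stem cells, out of 6211 enriched clusters of the whole experiment (12.6%, exact binomial 95% interval 11.8 to 13.5). A cluster is a group of overlapping reads called enriched by the authors. Members are the clusters that the authors annotated as coding sequence and that do not span a splice junction. A further 207 coding clusters across splice junctions, with 2194 tagged reads against 43 untagged, were left out. The other large classes were 3' UTRs with 3806 clusters (61.3%), introns with 316 and 5' UTRs with 93.

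Ago2 is the Argonaute protein that holds a microRNA and pairs it with messenger RNA, mainly through the seed, bases 2 to 8 of the microRNA. Most sites known to lower the level of a messenger RNA lie in 3' UTRs. Ago2 also binds coding sequence, where ribosomes pass over the site, and such sites are known to act more weakly on average. In embryonic stem cells the miR-290 cluster supplies a large part of all microRNA, and the miR-17 family has a closely related seed.

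RNA held by Ago2 was mapped by iCLIP, in which protein is crosslinked to RNA by ultraviolet light, the complex is purified and the RNA fragment is sequenced. The tagged group was the clonal line TT-FHAgo2, in which the single Argonaute family member was doxycycline-inducible human Ago2 with a FLAG-HA tag. The control was the clonal line TT-Ago2, whose human Ago2 has no tag and should not be captured by the FLAG and HA antibodies. Doxycycline stood at 0.1 µg/mL during growth of both lines and at 2.5 µg/mL for the last 24 h, a dose meant to give wild-type Ago2 levels, so neither group is an unmodified wild type. Each group had 1 library, so there was no spread between replicates, no test was made, and all intervals cover counting error only.

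The files analysed belong to the tagged library. Its implied size was 789000 reads, with the smallest coverage listed for a site taken as 1 read. Untagged numbers were worked back from the enrichment the authors list for each cluster, and their scaling is unknown. All 25 pluripotency factors looked up were listed as expressed, with a median of 82.2 FPKM (a length-scaled expression level) and a range of 1.15 to 1655. Of 8 primitive endoderm, 8 trophectoderm and 8 neural and mesoderm markers, 3, 6 and 6 were listed, with highest values of 25.1, 9.85 and 40.1 FPKM. Of 7 fibroblast markers 2 were listed, the higher at 6.76 FPKM.

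Seed matches of 3 related 7mers stood under a large part of the clusters, so the microRNAs that carry those seeds are shown first, with bases 2 to 8 in capitals. The matches are the reverse complement of the capitals, written as DNA, and are AGCACTT for the first pair, GGCACTT for miR-290a-3p and GCACTTT for miR-17-5p and miR-93-5p. The mature sequences are from RefSeq (GRCm38.p6), in which 44 of the 50 7mers of the authors' site table had a mature microRNA.
mmu-miR-291a-3p: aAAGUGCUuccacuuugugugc
mmu-miR-294-3p: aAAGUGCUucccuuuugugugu
mmu-miR-290a-3p: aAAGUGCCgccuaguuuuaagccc
mmu-miR-17-5p: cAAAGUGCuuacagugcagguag
mmu-miR-93-5p: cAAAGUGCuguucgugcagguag

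The seed matches next in share pair with miR-293-3p (match GCGGCAC), with miR-19a-3p and miR-19b-3p (match TTTGCAC), and, as GTTTGAG, with miR-290a-5p and miR-292a-5p, the opposite arm of the miR-290 cluster hairpins.
mmu-miR-293-3p: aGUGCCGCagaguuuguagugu
mmu-miR-19b-3p: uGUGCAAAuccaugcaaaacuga
mmu-miR-290a-5p: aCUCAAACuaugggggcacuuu

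The following stretches of coding sequence (mm9, written 5′ to 3′ on the RNA strand, match in capitals, as far as neighbouring entries of the site table overlap) lay in or reached into coding clusters. They show 8mers and 7mers of the 5 leading seeds, and Soat1 is included because its cluster had the highest untagged number of all 784.
Nup88, chr11:70781441-70781459, minus strand: caacatcatgtAGCACTTA
Tcf3, chr10:79879892-79879901, minus strand: GGCACTTAca
Med14, chrX:12283747-12283755, minus strand: ttGCACTTT
Atp13a3, chr16:30351389-30351415, minus strand: cccagagacacacaaGCGGCACActtt
Cnot6, chr11:49488759-49488771, minus strand: cacttTTTGCACA
Herc1, chr9:66220118-66220142, plus strand: gtttgttaTTTGCACttctgagaca
Soat1, chr1:158365979-158365993, minus strand: tgccttTTTGCACtg

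The clusters were shallow. Together they held 6286 tagged reads against 99 untagged, with a median of 7 tagged reads (interquartile range 5 to 9) and a highest value of 51. The lowest was 5, the smallest number that passes the authors' threshold, since 5 tagged reads against 0 give p = 0.03125 in their binomial comparison of the 2 libraries. Exactly 5 reads were held by 255 coding clusters (32.5%, 29.3 to 35.9), against 25.5% (24.1 to 26.9) of 3' UTR clusters. At least 20 reads were held by 24 coding clusters (3.06%, 1.97 to 4.52), against 8.07% (7.22 to 8.98) in 3' UTRs, so deep clusters were a smaller share in coding sequence. The median was the same in both regions, 7 reads, and 6 in introns. Coding clusters had a median width of 42 nt (range 24 to 109), close to the 44 nt of 3' UTR clusters.

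**Figure D1:**
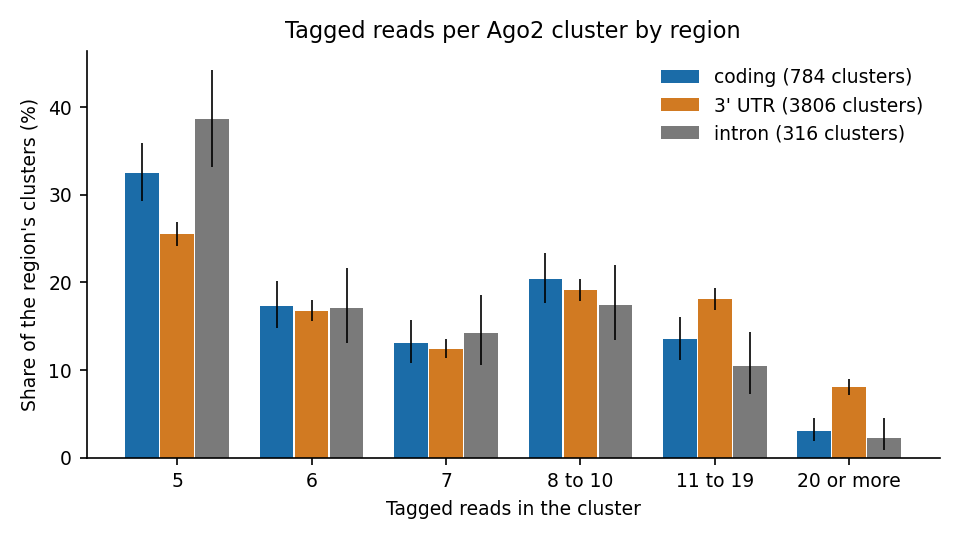
Share of clusters (%) by number of tagged reads for coding (784), 3' UTR (3806) and intron (316) clusters, with exact 95% intervals as error bars. Coding clusters had 32.5% at 5 reads and 3.06% at 20 or more, and 3' UTR clusters 25.5% and 8.07%.

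In the untagged control, 698 coding clusters (89.0%, 86.6 to 91.1) had 0 reads, 75 had 1, 10 had 2, and 1, in Soat1, had 4. The share at 0 was 89.2% in 3' UTRs, 81.0% in introns and 72.0% in 5' UTRs. Clusters of 5 or 6 reads pass the threshold only against 0, which sets part of this share. Among clusters of at least 7 reads it was 78.1% (73.7 to 82.1) in coding sequence, 81.3% in 3' UTRs and 57.1% (48.5 to 65.5) in introns. Coding clusters thus lay nearer to 3' UTR clusters than to introns in this measure.

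The deepest coding cluster was in Rps14, a protein of the small ribosomal subunit, at chr18:60938093-60938165 with 51 tagged reads against 1 untagged. Prrc2a, a large proline-rich RNA-binding protein, followed with 37 against 0, at least 12.3-fold when 0 is set to a floor of 3 counts per cluster. Mob1a, a coactivator of the LATS kinases of the Hippo pathway, and Ei24, an endoplasmic reticulum membrane protein, each had 35 against 0 (at least 11.7-fold). These 4 clusters are 73 to 109 nt wide, above the median width.

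Slc25a39, a mitochondrial carrier, had 33 against 0. Cct6a, a subunit of the cytosolic chaperonin that folds actin and tubulin, had 32 against 0. Eif4g1, the scaffold of the cap-binding translation initiation complex, had 32 against 1. C330019G07Rik had 29 against 0, and Dcakd, a protein with a dephospho-CoA kinase domain, 29 against 2. The remaining 6 of the 15 deepest each had 27 tagged reads. Trim35, a tripartite motif protein, Mybl2, a transcription factor of cell cycle genes, and Emg1, a methyltransferase of ribosomal RNA, had 0 untagged. Snrnp200, the helicase that unwinds spliceosomal RNA, had 1, and the ubiquitin ligase Trip12 and the Ago2 partner Tnrc6b each had 2. In all, 9 of the 15 had 0 untagged reads.

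The members fell in 562 genes. Of 12682 genes with coding or 3' UTR entries in the authors' site table, 4.25% (539) had at least 1 coding cluster. There were 414 genes with 1 coding cluster, 106 with 2, 23 with 3 and 19 with 4 or more. In 95 of the 148 genes with several, neighbouring clusters were under 100 nt apart, and overlapping clusters can share reads. The 15 genes with the most clusters were of mixed function, and 8 of them had 0 untagged reads in sum.

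Hsp90ab1, the constitutive cytosolic HSP90 chaperone, had 7 coding clusters of 5 to 10 reads, 51 against 0 in sum. Herc1, a giant ubiquitin ligase, had 6 with 57 against 1, although it was listed at only 2.23 FPKM against 1595 for Hsp90ab1. The homeobox and zinc finger protein Adnp, part of a chromatin complex, had 6 with 50 against 0, and its paralog Adnp2 had 4 with 34 against 0. Msh6, which recognises mismatches in DNA repair, had 6 with 40 against 0. The chaperone's clusters were spread over 3260 nt of genome and those of Herc1 over 132619 nt, introns included.

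Prrc2a had 5 coding clusters, of which the deepest was also the widest of all, at 109 nt. Actb, cytoplasmic beta-actin, had 5 with 42 against 3, Gnb2l1, the ribosome-bound scaffold RACK1, 5 with 40 against 3, and Atp5b, the beta subunit of mitochondrial ATP synthase, 5 with 34 against 1. Aars, alanyl-tRNA synthetase, had 4 with 26 against 2, and Uba1, the enzyme that activates ubiquitin, 4 with 29 against 1. Tet1, an oxidase of 5-methylcytosine in DNA, had 4 with 27 against 0.

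Slc7a3, a transporter of cationic amino acids, had 4 coding clusters stacked within 145 nt, of 5, 6, 7 and 23 reads, 41 against 0 in sum. Clusters that overlap in this way are not independent of each other.

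**Figure D2:**
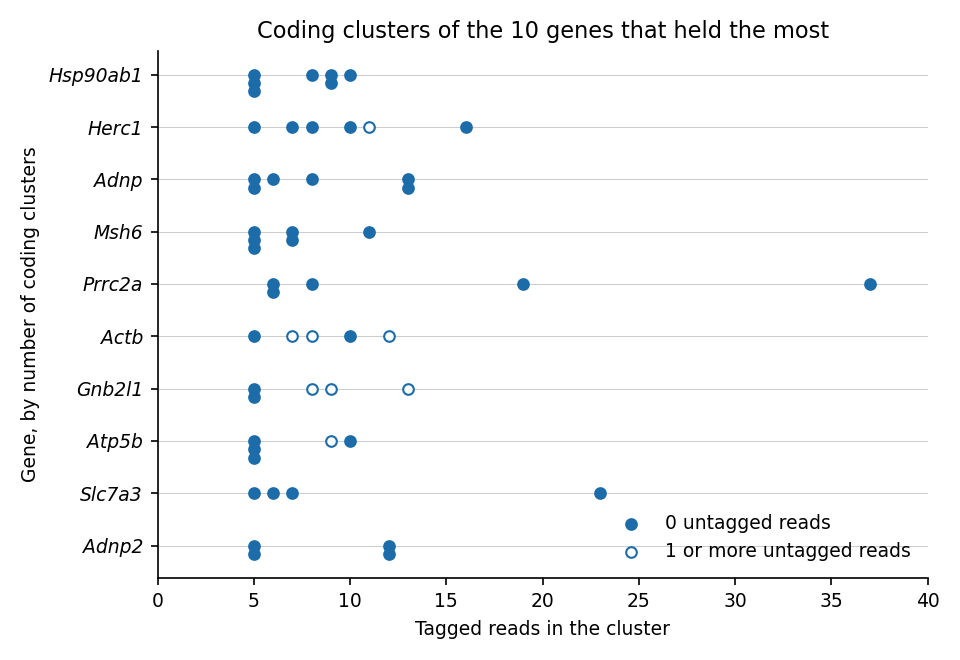
Tagged reads (horizontal axis) of each coding cluster in the 10 genes with the most coding clusters, 1 point per cluster, filled where the untagged number is 0. Most points lie at 5 to 13 reads, and those at 37 and 19 in Prrc2a, at 23 in Slc7a3 and at 16 in Herc1 lie beyond.

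Genes with a coding cluster had a 3' UTR cluster more often than genes at large. Of the 562 genes, 197 (35.1%, 31.1 to 39.2) also had a 3' UTR cluster and 365 had none. Among all genes of the site table, the share with a 3' UTR cluster ran from 3.27% to 23.0% by expression level. Seen from the other side, 10.9% of the 1807 genes with a 3' UTR cluster had a coding one, against 4.25% of all genes. The part of expression in this overlap was not tested. Of the 15 genes above, 8 had no 3' UTR cluster, among them Herc1, Msh6, Prrc2a and Gnb2l1, while Actb had 8 and Tet1 had 6.

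Genes with a coding cluster were highly expressed. Their median was 26.3 FPKM (interquartile range 10.04 to 68.8), against 12.1 for genes with 3' UTR clusters only, 4.36 for genes with neither and 5.64 for all 12682. The share of genes with a coding cluster was 0.661% below 1 FPKM, 2.89% at 3 to 10 FPKM, 8.96% at 30 to 100 FPKM and 18.3% (15.2 to 21.7) at 100 FPKM or more. For 3' UTR clusters the shares at these levels were 3.27%, 15.6%, 21.3% and 23.0% (19.6 to 26.6), so the coding share went on rising where the 3' UTR share levelled off. Some of the most expressed genes had no coding cluster. The 5 genes of highest FPKM with no coding cluster were Gm10982 (5152 FPKM), Gm11032, Gm10139, Ptma, which encodes prothymosin alpha (1711 FPKM), and the pluripotency-associated Dppa5a (1655 FPKM).

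**Figure D3:**
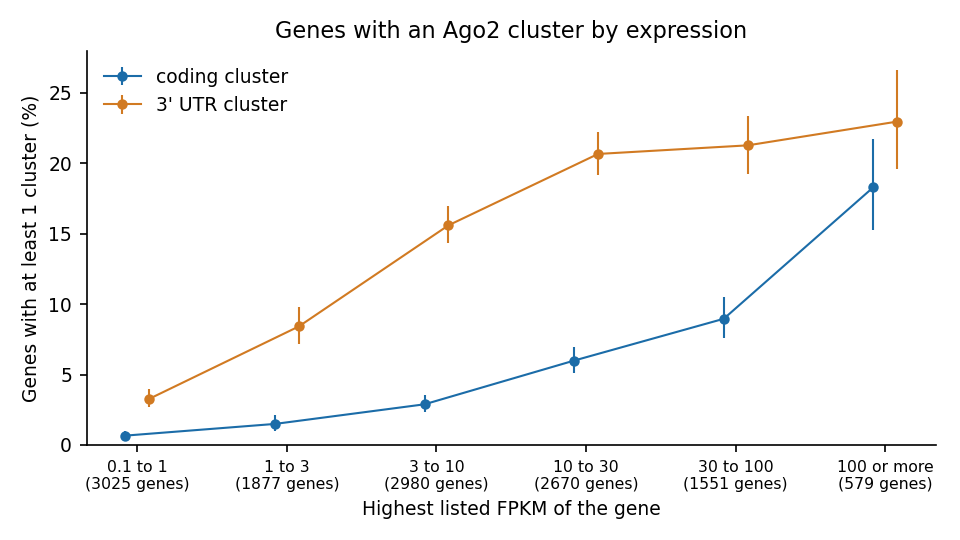
Share of genes (%) with at least 1 coding cluster or at least 1 3' UTR cluster, by the highest FPKM listed for the gene, with exact 95% intervals. The coding share went from 0.661% to 18.3% and the 3' UTR share from 3.27% to 23.0%.

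Gene groups were read against the 4.25% of all genes. Over all lists 78 of 700 genes (11.1%) had a coding cluster. Most lists hold highly expressed genes, so for lists of at least 10 genes the median FPKM is given beside the count, and its part in the counts was not tested. Among lists of at least 10 genes the highest share was in the cytoskeleton list, with 10 of 26 genes (38.5%, 20.2 to 59.4, median 50.2 FPKM). Besides Actb, it included the tubulins Tubb4b, with clusters of 12 and 14 reads and 0 untagged, and Tubb5, with 15 against 2, the dynein motor heavy chain Dync1h1 (15 against 0) and talin, Tln1 (10 against 0).

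Translation factors had 7 of 27 (25.9%, median 111 FPKM). Eif4g1 had 3 clusters with 44 reads against 1, Eif3a 1 of 10, its relative Eif4g2 1 of 9, and the elongation factors Eef1a1 and Eef2 1 of 8 each. Chaperones had 6 of 25 (24.0%, median 285 FPKM), with 3 subunits of the same chaperonin, Cct6a (41 against 0), Cct7 (18 against 0) and Cct2 (17 against 0), beside Hsp90ab1 and the endoplasmic reticulum chaperone Hspa5 (6 against 0). Glycolysis had 4 of 18 (22.2%, median 119.5 FPKM), namely Aldoa and Pkm2 with 9 reads each, Slc2a3 with 7 against 1 and Pfkl with 5. RNA-binding and splicing proteins had 7 of 35 (20%, median 117 FPKM), led by the spliceosome core protein Prpf8 with 4 clusters (26 against 0), the helicase Dhx9 (16 against 0), Snrnp200, Srsf1 and Sf3b1 (11 against 0).

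The microRNA pathway and mRNA decay list had 8 of 31 genes (25.8%, 11.9 to 44.6) at a median of only 15.2 FPKM. Tnrc6a, the GW182 protein that links Argonaute to the deadenylases, had 3 clusters of 12, 13 and 15 reads with 0 untagged. Cnot6, a catalytic deadenylase subunit, had 3 of 5, 12 and 12 reads against 1, over a TTTGCACA and a GGCACTTA match. Trim71, an RNA-binding protein of early development and a known let-7 target, had 3 of 5, 6 and 13 reads with 0 untagged, of which the 6-read one lay over AGCACTT and the 5-read one over GTTTGAG. Cnot1, the scaffold of the deadenylase complex, had 2 clusters of 6 reads, each over a TGCACTG match.

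Eif2c2, the symbol of mouse Ago2 in the files, had 3 overlapping coding clusters of 23, 7 and 7 reads against 2 untagged in sum, and no cluster in another region. Both lines express human Ago2 from a transgene. Whether transgene RNA gave these reads was not tested.

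Pluripotency factors had 5 of 25 genes (20%, 6.83 to 40.7, median 82.2 FPKM). Fgf4, a growth factor secreted by these cells, had 4 coding clusters with 25 reads against 0, beside 15 in its 3' UTR. The homeobox factor Nanog had 2 (5 and 12 reads), the Krüppel-like factors Klf2 (5 and 6) and Klf4 (5 and 5) had 2 each, all with 0 untagged, and Utf1 had 1 of 10 reads against 1. Nanog was the only gene with a coding cluster among 5 genes known from other work for coding microRNA sites. The other 4, Pou5f1 at 609 FPKM, Sox2 at 215, Dnmt3b at 31.7 and Dicer1 at 5.52, had none. Neither Nanog cluster lay over a listed 7mer or 8mer.

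Chromatin regulators had 6 of 37 genes (16.2%, median 26.65 FPKM), with Jarid2, a partner of Polycomb repressive complex 2, at 6 and 16 reads, the remodeller Chd4 at 6 and 11, and the DNA methyltransferase Dnmt1 at 14, all against 0. Dnmt3l, a cofactor of de novo methylation, had 1 of 6 reads. Cell cycle regulators had 5 of 34 (14.7%, median 14.96 FPKM), with 5 to 8 reads each in Aurkb, Cdk4, Ccne1, Cdk1 and Rbl1. The signalling list had 4 of 38 (10.5%, median 16.1 FPKM), namely beta-catenin (Ctnnb1, 17 against 0), Tcf3 (16 against 0), Smad7 (7) and Nodal (5). Tcf3 here is the E-protein gene on chromosome 10, not the Wnt factor Tcf7l1 that was once called Tcf3. It was counted by its symbol alone, so the 4 of 38 and the 78 of 700 over all lists include a misassigned gene.

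At the low end were ribosomal protein genes, with 7 of 78 (8.97%, 3.69 to 17.6) at a median of 583 FPKM, and genes named Zfp, with 8 of 311 (2.57%, 1.12 to 5.01) at 2.72 FPKM. Apart from Rps14 the ribosomal clusters were small, led by Rplp1 (11 and 16 reads against 4 in sum), Rpl4 (7 and 7 against 1) and Rpl8 (5 and 6 against 0). The zinc finger genes were led by Zfp238 (24 against 0), Zfp57 (18 against 0) and Zfp710 (17 against 0). Primitive endoderm, trophectoderm and neural and mesoderm markers had 0 of 3, 0 of 6 and 0 of 6, and the fibroblast list had 1 of 2 (50%, 1.26 to 98.7), Fn1, with 1 cluster of 5 reads.

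Overlap with seed matches was read from the authors' site table, which lists coding 6mer, 7mer and 8mer matches of 50 microRNA seeds and further 8mers. The 8mers that extend none of the 50 seeds served as control. They include seed matches of microRNAs outside the 50, such as CTACCTCA of let-7, so the control is not free of microRNA sites. Coding entries were present for 8036 genes against 12090 with 3' UTR entries. Of 434929 coding entries, 17615 were also listed as 3' UTR at the same place, and they were not removed from either region. They were missing over long stretches of some chromosomes, with 12 genes against 398 on chromosome 14 and 550 against 574 on chromosome 17. The 260 clusters in genes with no coding entries could not be scored, and shares below are over the other 524.

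Of these 524 clusters, 238 (45.4%, 41.1 to 49.8) overlapped a coding 7mer or 8mer of a listed seed on the same strand by at least 1 nt, 82 of them an 8mer. A further 131 (25%) overlapped a 6mer and no longer match, and 155 (29.6%) overlapped no listed match. The share was 48.4% (46.8 to 50.0) for 3611 3' UTR clusters scored in the same way. Several matches were common, with 69 clusters over 2 or more. A control 8mer lay under 210 clusters (40.1%). The control set has more sites than the listed 7mers and 8mers, so the site-based shares below are the closer comparison.

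Deeper clusters more often lay over a match. The share was 35.1% (27.9 to 42.9) at 5 reads, 48.7% at 6 or 7, 45.7% at 8 to 10 and 59.7% (47.9 to 70.8) at 11 to 19. It was 7 of 13 (53.8%, 25.1 to 80.8) at 20 or more, a bin of few clusters. The 3' UTR shares went from 34.2% to 70.0% over the same bins. The median width also rose, from 32 nt to 83 nt for coding clusters, and its part in the trend was not tested.

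Of the 15 deepest clusters, 9 were in genes with coding entries and 4 of those lay over a listed 7mer or 8mer. C330019G07Rik held AGCACTT and GCACTTT in one stretch, Dcakd held GTTTGAGA, Emg1 held ATGAAAA and GGCACTT, and Tnrc6b held GGCACTT. The other 5 were Ei24, with no entry of any kind, Cct6a, Trim35 and Mybl2, with 6mers or control 8mers, and Trip12, whose entries included the 6mer GCACTT. The 4 clusters over a listed match held 27 to 29 reads and the 5 without one 27 to 35.

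Among the 10 deepest clusters over a match, 7 held one of the 3 related 7mers. Besides C330019G07Rik, Emg1 and Tnrc6b, these were Eif2c2 (23 against 1), Tnfaip1, an adaptor of cullin ubiquitin ligases (23 against 2), the nuclear pore protein Nup88 (19 against 1) and the transcription factor Tcf3 (16 against 0). The other 3 were Dcakd and Ncbp1, the large subunit of the nuclear cap-binding complex (17 against 1), both over GTTTGAGA, and Srsf1, a splicing factor (20 against 1), over TGTTTAC. In all, 126 clusters (24.0% of 524, and 52.9% of those over a match) lay over at least one of the 3 related 7mers.

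Seen from the sites, a small part of all coding matches lay in a cluster. Of 53130 coding 7mers and 8mers of listed seeds 297 (0.559%) did, against 280 of 189358 control 8mers (0.148%, 0.131 to 0.166). The 8mers stood at 0.560% (0.440 to 0.701), the 7mers at 0.559% (0.488 to 0.637) and the 6mers at 0.256% (0.230 to 0.284), which are 3.78, 3.78 and 1.73 times the control. In 3' UTRs 3.22% of 8mers, 2.71% of 7mers and 0.673% of control 8mers lay in a cluster, 4.79 and 4.03 times. A coding match was therefore in a cluster less often than a 3' UTR match, and so was a coding control site. Pooled over all listed seeds, the step from 7mer to 8mer seen in 3' UTRs was not seen in coding sequence at this depth. Most of the single seeds compared below had a higher share for the 8mer, with overlapping intervals for all but GGCACTT.

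The total hid large differences between seeds. The 3 related 7mers had 142 of 2097 coding matches in clusters (6.77%, 5.73 to 7.93), and the other 47 together had 155 of 51033 (0.304%, 0.258 to 0.355). The 3 thus made up 3.95% of the coding matches and 47.8% of those in clusters. GCACTTT stood highest at 48 of 621 (7.73%, 5.75 to 10.1), followed by AGCACTT at 60 of 940 (6.38%, 4.91 to 8.14) and GGCACTT at 34 of 536 (6.34%, 4.43 to 8.75). Their intervals overlap, so no order among the 3 is given.

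GCGGCAC, the match of miR-293-3p, had 19 of 529 (3.59%, 2.18 to 5.55), and TTTGCAC, that of miR-19, had 18 of 698 (2.58%, 1.54 to 4.05). GTTTGAG had 14 of 946 (1.48%, 0.811 to 2.47), and CTTTGAT, the match of miR-291a-5p, had 10 of 1119 (0.894%). TGCTGCT, the match of miR-15a-5p, had 16 in clusters, but of 3845 coding matches (0.416%, 0.238 to 0.675), against 3.89% of its 3' UTR matches. TGCACTG, the match of miR-148a-3p, had 8 of 1220 (0.656%), and GGGGCCC, that of miR-296-5p, had 7 of 1337 (0.524%). The 5 seeds with the highest coding share were also the 5 highest in 3' UTRs, where they stood at 20.3% for GCACTTT, 16.99% for GGCACTT, 13.7% for AGCACTT, 12.5% for GCGGCAC and 10.2% for TTTGCAC. Another 12 of the 50 7mers had no coding match in a cluster. Some seeds with a few such matches also stood below the 0.148% of control 8mers, with intervals that reach it. Examples are GGCAGCT at 3 of 2245 (0.134%, 0.0276 to 0.390) and GAGCCTG at 3 of 2401 (0.125%, 0.0258 to 0.365).

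**Figure D4:**
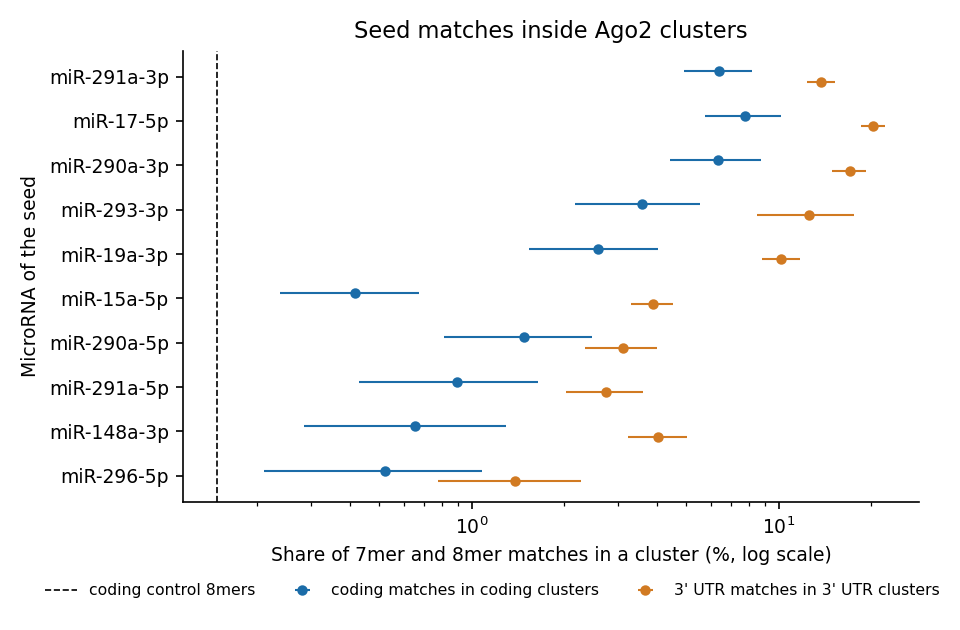
Share (%, log scale) of 7mer and 8mer matches in a cluster of their own region, for the 10 seeds with the most coding matches in coding clusters, each named by 1 microRNA, with exact 95% intervals; the dashed line is the share of coding control 8mers (0.148%). Every coding point lies below its 3' UTR point and above the dashed line, and the interval of no seed shown reaches that line. The seeds were chosen by their matches in clusters, which partly sets their place above the line.

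Within 5 of the 6 seeds compared by match type, the 8mer had the higher share, but the intervals were apart for GGCACTT alone. The 8mer GGCACTTA was in a cluster at 12 of 82 coding sites (14.6%, 7.80 to 24.2), against 22 of 454 (4.85%, 3.06 to 7.25) for GGCACTT with another base after it. For AGCACTT the 8mer stood at 10.2% (5.20 to 17.5) and the 7mer at 5.89% (4.39 to 7.71), for GCACTTT at 9.63% and 7.20%, for GCGGCAC at 5.04% and 3.08%, and for GTTTGAG at 2.86% and 0.792%. TTTGCAC had the lower value for the 8mer, also with overlapping intervals, at 3 of 321 8mers (0.935%, 0.193 to 2.71) and 15 of 377 7mers (3.98%, 2.24 to 6.48). The shared core GCACTT without either longer match stood at 33 of 680 (4.85%, 3.36 to 6.75), far above the 0.256% of all coding 6mers, while the other 6mer, CACTTT, stood at 7 of 1897 (0.369%).

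AGCACTT followed by T also holds GCACTTT, so that both seeds match in one stretch. Such stacked sites were in a cluster at 17 of 261 (6.51%, 3.84 to 10.2), and AGCACTT with another base after it at 43 of 679 (6.33%, 4.62 to 8.44). GCACTTT with neither A nor G before it stood at 23 of 212 (10.8%, 7.00 to 15.8). The stacked stretch therefore did not stand above the single matches.

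Sites with at least 1 read were far more common than sites in a cluster. Reads were listed at 12.3% (11.8 to 12.9) of coding 8mers, 13.5% of 7mers, 10.9% of 6mers and 8.50% (8.38 to 8.63) of control 8mers. By this measure the 8mers stood 1.45 times above control, against 3.78 times by clusters.

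Crosslinks mark where the protein touched the RNA, and the cluster table gives the position with most crosslink events where there were at least 2. Of the 784 clusters, 527 (67.2%, 63.8 to 70.5) had such a peak, against 70.9% in 3' UTRs and 82.3% in introns. It held 2 events in 321 clusters, 3 or 4 in 176 and 5 or more in 30. One leading position was given in 399 clusters and several in 128, which makes 690 positions in all. The commonest place was 11 nt from the 5′ end of the cluster on the plus strand (34.9% of 378 positions) and 12 nt on the minus strand (32.7% of 312).

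The strongest crosslink peak was that of Rps14, with 18 events at 1 position. Next came Tnfaip1 with 11 events and Tcf3 with 10, both in clusters over an 8mer (AGCACTTA and GGCACTTA). Mob1a had 9, and Dcakd had 7, over GTTTGAGA. In Gnb2l1, whose cluster of 104 nt is the second widest, the 7 leading positions had only 2 events each.

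The commonest place of leading positions was the 5′ edge of the seed match, though most positions lay elsewhere. In 174 coding clusters over a listed 7mer or 8mer there were 216 positions, at a median of 1 nt upstream of the first base of the match (median -1, interquartile range -8.25 to 7). Some of these clusters held several listed matches, and each position was set against 1 of them, so the shares can depend on that choice. With every match of a cluster counted the median was -2. The first base and the base before it held 46 positions (21.3%, 16.0 to 27.4), against 4 of 200 (2%, 0.548 to 5.04) around control 8mers in 151 clusters. Control 8mers that overlap a listed match were left out, so no control could start on a listed match. This can lower the control share where crosslinks sit on listed matches, and its part was not tested. The stretch of 2 to 10 nt upstream held 26.9% (21.1 to 33.3), against 13.5% (9.09 to 19.03) for control. From 7 to 10 nt downstream of the first base, just past the match, the intervals overlapped, at 13.4% (9.18 to 18.7) and 12.5% (8.26 to 17.9) for control.

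Of the 216 positions around listed matches, 27 (12.5%) were on the first base itself. Both strands were pooled, although the commonest place in a cluster was 11 nt on the plus and 12 nt on the minus strand. Shares of single bases may therefore be blurred between neighbouring bases, which was not tested. The bases 1 and 2 after the first held 6 of 216 (2.78%, 1.03 to 5.95), against 1 of 200 (0.5%, 0.0127 to 2.75) for control. The bases 3 to 6 after the first held 2 of 216 positions (0.926%, 0.112 to 3.31), against 7 of 200 (3.50%, 1.42 to 7.08) for control. Both pairs of intervals overlap. For the 3 related 7mers, 33 of 117 positions (28.2%, 20.3 to 37.3) fell on the first base or the base before it, and 0 of 117 on the 6 bases after it. The 3' UTR pattern was similar, with 17.95% (16.2 to 19.8) of 1872 positions on these 2 bases against 2.45% for control. In the bases 3 to 6 after the first, 3' UTR matches held 4.38% (3.50 to 5.41), an interval that does not overlap the coding one.

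**Figure D5:**
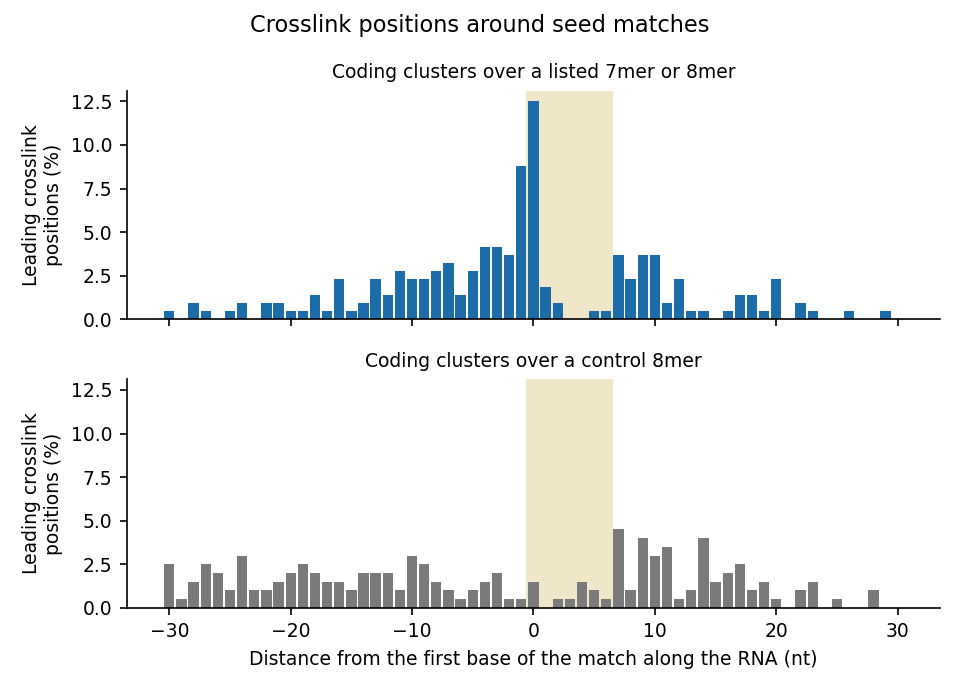
Share (%) of leading crosslink positions by distance (nt) from the first base of the match along the RNA, in coding clusters over a listed 7mer or 8mer (216 positions, upper panel) and over a control 8mer (200 positions, lower panel); the shaded band covers the 7 bases of a 7mer. The upper panel peaks at -1 and 0, which together hold 21.3%, and the lower panel holds 2% there.

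Coding matches in clusters sat in conserved sequence, but coding sequence is conserved in general. A phastCons value of at least 0.95, where 1 marks the most conserved sequence, was given for 233 of 297 listed 7mers and 8mers in clusters (78.5%, 73.3 to 83.0). The share was 71.2% (69.7 to 72.7) for matches outside clusters in the same genes and 61.0% for all matches outside. Control 8mers had 76.1% (70.6 to 81.0) in clusters, 72.2% outside in the same genes and 60.7% outside in all. In 3' UTRs the listed matches stood further from control, at 49.1% in clusters against 31.8% for control 8mers in clusters. In coding clusters the intervals of listed matches and control sites overlapped. Among the printed matches, Cnot6, Med14 and Soat1 stood at 1, and Tcf3 at 0.0101.

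Matches were also grouped by their distance from the 3' UTR. Measured on the genome with introns included, 0.565% (0.402 to 0.771) of listed 7mers and 8mers within 500 nt of the first 3' UTR entry of their gene lay in a cluster, 0.797% (0.601 to 1.04) of those farther away, up to 2000 nt, and 0.550% (0.476 to 0.633) beyond. The intervals overlap. Control 8mers stood at 0.213% (0.16 to 0.279), 0.228% (0.171 to 0.297) and 0.128% (0.109 to 0.150), lowest in the farthest group.

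Control 8mers were not concentrated in a few sequences. Of 924 with coding sites, 702 had none in a cluster and the highest number for a single one was 6.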

How the data were processed

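Values come from 1 tagged iCLIP library of 2; the untagged one enters only through the authors' numbers. The submitters' processing notes name Bowtie, TopHat, mm9 and NCBIM37; no other tool is named in the labels or headers. The authors deposited peak height, a signal counted in whole reads without normalization. The deposited cluster score joins tagged reads, log2 enrichment and a binomial p-value (threshold 0.05); the untagged number implied by the authors' log2 matched it within 0.005 in all 6211 clusters. Site coverage in rpm was made by the authors; 100% of 1641948 entries were whole multiples of 1.27 rpm within 0.001. Expression is FPKM as deposited, and site coverage is also deposited as a log2 value, not used here. PhastCons is a conservation score, per the file headers. Entries were restricted by the authors to at least 0.1 FPKM.

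A site and a cluster overlapped when they shared 1 nt or more of a strand. Nested 7mers and 6mers and control 8mers over a listed match were left out. A crosslink distance used 1 match per position, also in clusters with several matches. Intervals are exact (Clopper-Pearson) at 95%; reads may include PCR copies, so intervals and floors cover counting error only. Folds against 0 used a floor of 3 counts. The overlap code was tested on simulated data. Python 3.11.15, pandas 2.3.3, NumPy 2.4.6 and SciPy 1.17.1 were used.

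Named are the 15 deepest coding clusters, the 5 with most crosslink events, the 10 deepest over a 7mer or 8mer, the 10 widest, the 15 genes with most clusters, the 5 of highest FPKM without one, up to 5 members per list, and the 10 seeds with most and 5 with the highest share of matches in clusters; Tnrc6b, a list member, appears through its reads. Some genes named by it are not reported here. Sequences printed were chosen after their values were seen. The members and the gene lists were chosen with earlier results of these data known. Alternatives were stricter thresholds, junction or merged clusters, other overlap rules and expression minimums.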

Additional observations from a re-analysis of the deposited data

How the results depend on the processing

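With 1 library per group no result has a replicate check. No paired analysis was possible because each group holds 1 library. At p under 0.01 there were 348 coding clusters (11.3% of all clusters) in 286 genes with a median of 9 reads, 52.5% of those scored lay over a listed 7mer or 8mer, and 6.71% of list genes had one. At 7 or more tagged reads there were 393 (11.3%) in 312 genes, 78.1% had 0 untagged reads, and 7.43% of list genes had one. Junction clusters included gave 991, and neighbours within 20 nt merged gave 676. Matches wholly inside the cluster gave 40.5% of clusters and 0.107% of control 8mers, and 6mers counted too gave 70.4% of clusters. At 1 FPKM or more the control share was 0.191%, and at 1 read or more at the site the 8mer share was 12.3% and the control share 8.50%; the ratio of 8mers to control was 3.66 and 1.45 in turn, against 3.78, and 4.73 with matches wholly inside.

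Alternatives chosen after seeing the data were all 784 clusters as denominator (30.4% over a match), control 8mers over a listed match kept (0.172%), every match of a cluster counted (median crosslink distance -2), and Benjamini-Hochberg adjustment of the authors' p over all clusters, under which all 784 stayed under 0.05. That last outcome was fixed in advance and is no check, because only clusters already under 0.05 were adjusted. Neither 8mers alone nor positions of 3 or more events moved the crosslink median from -1. Depth is a further limit, since 32.5% of clusters rest on 5 reads.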
